A study of Mus musculus with 6 samples.

Results

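The genes described here carry the signal of Toll-like receptors (TLRs) from the membrane to the kinases that activate NF-κB, MAP kinases and interferon regulatory factors. They are 35 genes chosen by symbol, all of them present among the 18019 genes of the deposited table: 9 receptors, 4 co-receptors, 1 receptor chaperone, 5 adaptors, 14 kinases, kinase subunits and ubiquitin enzymes, and 2 brakes. Their RNA was measured in RAW264.7, a line of mouse macrophages. All cells had been induced with lipopolysaccharide (LPS), the bacterial product that TLR4 detects. The TPPU group (n = 3 libraries) also received TPPU, an inhibitor of soluble epoxide hydrolase, and the control group (n = 3) received LPS without it. The doses and times used for either agent are not known here. No library without LPS is analysed here, so the values compare 2 LPS-induced groups and say nothing of what LPS itself did.

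TLRs at the cell surface recognise lipids and proteins of microbes, and those in endosomes recognise nucleic acids. Most of them signal through the adaptor MyD88, which gathers kinases of the IRAK family and leads through TAK1 to the IKK complex and NF-κB. TLR4 also enters a second route, through the adaptors TRAM and TRIF, which leads through TBK1 to type I interferon. In macrophages, LPS signalling is held back by several proteins of the same pathway, among them IRAK-M and TOLLIP.

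No member passed the test in either direction, and neither did any other gene. With limma on log2(FPKM + 1) and Benjamini-Hochberg adjustment over 9728 tested genes, 0 genes were called higher and 0 lower at an adjusted p under 0.05 (percent called 0 in each direction), and the smallest adjusted p of any gene was 0.116. Of the members, 32 had at least 1 FPKM in at least 3 of 6 libraries and were tested. FPKM is the number of fragments per kilobase of gene, scaled to the total of the library. The length appears to be that of all annotated exons together, so levels compared between genes depend on it. Of these 32 genes, 15 had a positive change and 17 a negative one, with a median log2 fold change of -0.03, beside 0.02 over all tested genes. At an unadjusted p under 0.05 there were 2 members higher, Ly86 and Ticam2, and 1 lower, Map3k8, where 4.19% of all tested genes were higher and 3.7% lower by that rule. With sample quality weights, Ly86 was called higher and Map3k8 and Peli1 lower, among 89 genes higher and 80 lower of the 9728 tested. The weights were 3.84, 0.83 and 0.19 for control replicates 1, 2 and 3, so these calls rest mostly on 1 control library.

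In 3 tested members all TPPU values lay above all control values, which is 9.38% of the 32, against 7.48% of all tested genes. In 5 tested members every TPPU value was lower than every control value, which is 15.6%, against 7.88% of all tested genes. The first were Ly86, Ticam2 and Unc93b1, and the second Map3k8, Peli1, Irak2, Tollip and Tbk1. Members were chosen with earlier results of these data known, so these shares are a description only. Without control replicate 3 there were 4 above, against 17% of all tested genes, and 7 below, against 12.4%; Irak4 joined the first, and Chuk and Irak3 the second. Among the 3 untested members, Tlr4 was the 1 whose groups did not overlap, and no share was computed over the genes below the filter. Fewer cells that express a gene and less RNA per cell cannot be told apart in such bulk libraries.

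Depth was estimated at 18.2 M, 22.9 M and 21.2 M fragments in TPPU and 17.8 M, 22.7 M and 19.1 M in control libraries. One library, control replicate 3, was unlike the rest. Its correlations with them across genes were 0.958 to 0.977, and mitochondrial transcripts made up 0.371% of its FPKM, against 0.914% to 1.85% in the others. It held the highest or the lowest of the 6 values for 18 of the 32 tested members, which is 56.2%, and for 62.5% of all tested genes. Of the 10 macrophage markers, 9 were at or above 1 FPKM in every library, with summed levels of 2057 to 2174 FPKM in TPPU and 1943 to 2320 in control libraries. The exception was Mrc1, near 0. All 4 hepatocyte markers were also at or above 1 FPKM in every library, with summed levels of 78.3 to 144 FPKM in TPPU and 33.5 to 69.2 in control libraries. Alb, the gene of serum albumin, measured 66.4, 113 and 98.4 FPKM in TPPU and 24.5, 38.1 and 59 in control libraries. The part of these transcripts in the results on the members was not tested. The summed levels of the other 5 marker lists, for fibroblasts, epithelium, T cells, B cells and endothelium, were 7.15 FPKM or less in every library. The sample labels of the TPPU libraries also cite a column named sh-LIS1 of a table not used here, and Pafah1b1, the gene of LIS1, measured 10.7, 13.5 and 14.2 FPKM in TPPU and 11.7, 14.2 and 6.52 in control libraries.

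The members spanned a wide range of levels in FPKM, which depend on the exon length of each gene. In control replicate 1, Ikbkb measured 5.7 FPKM from an estimated 1936 fragments over 19078 bases of exons. Tbk1 measured 34.3 FPKM there from an estimated 2388 fragments over 3910 bases. Averaged over the 6 libraries, 2 were above 100 FPKM, 18 between 10 and 100, 12 between 1 and 10, and 3 below 1. In the order of levels, Cd14 stood clear at 371 to 567 FPKM, followed by Unc93b1 at 175 to 215. Irak2, at 49.1 to 65.6 FPKM, overlapped with Pik3ap1 just above it and was clear of Ly86 below it. At the low end Tlr4 was clear of Tlr3, and Tlr3 of Tlr8. For the other 29 neighbouring pairs in that order, the ranges over the 6 libraries overlapped.

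**Figure D1:**
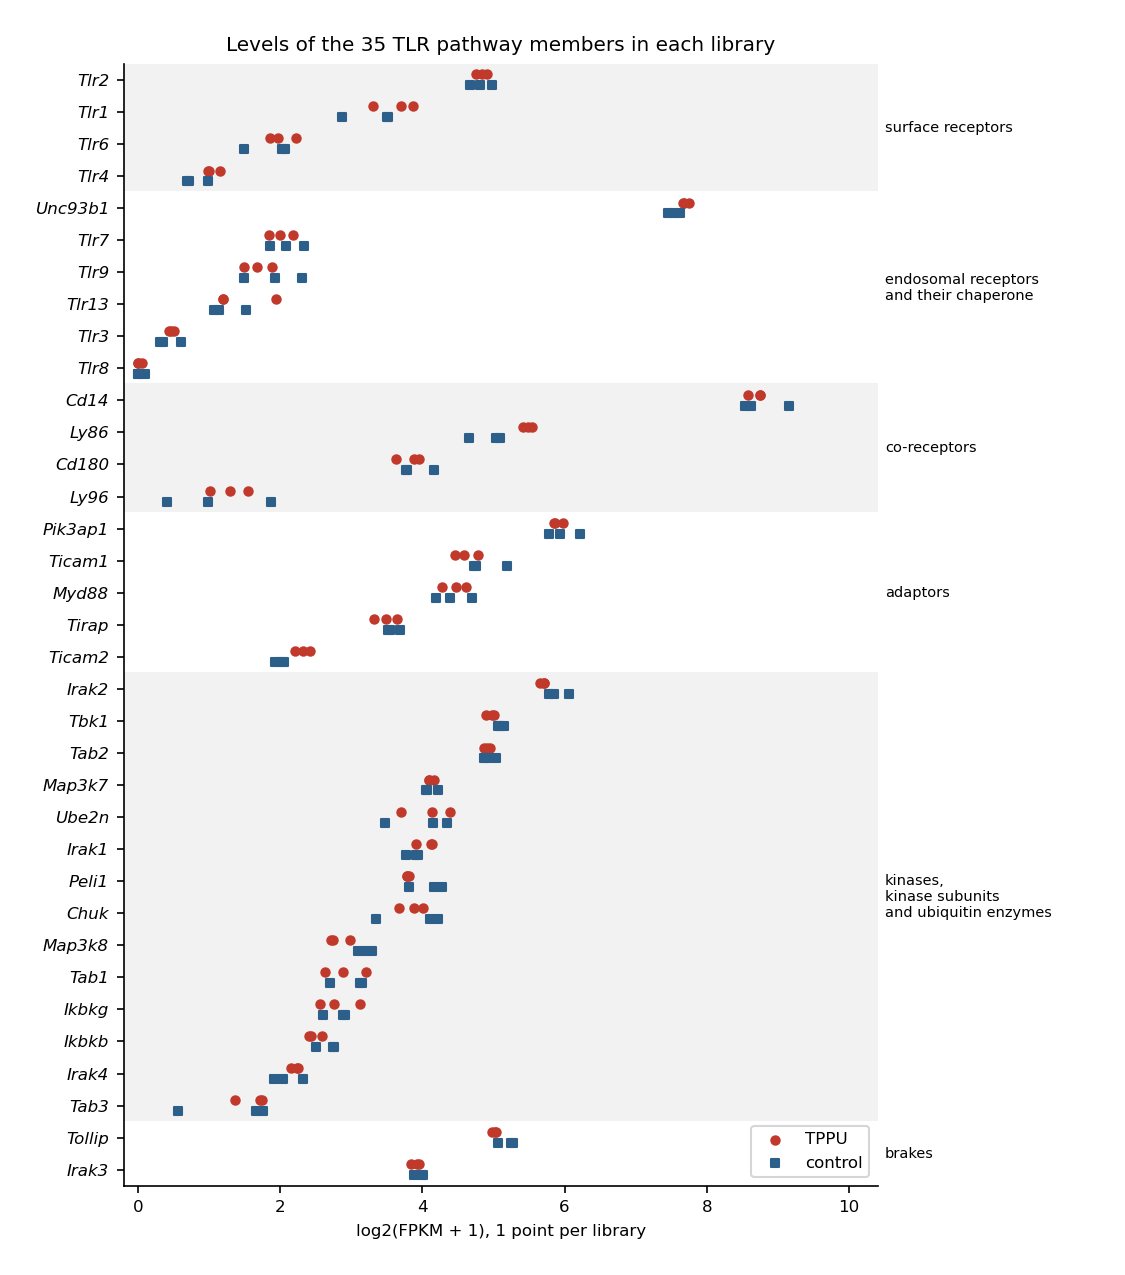
Level of each of the 35 members on the log2(FPKM + 1) scale (horizontal axis), 1 point per library, with TPPU (circles, upper row of each gene) and control (squares, lower row), grouped by role. Cd14 and Unc93b1 sit highest, and Tlr4, Tlr3 and Tlr8 lowest.

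Among the surface receptors, the level of Tlr2 was highest and that of Tlr4 lowest, and no tested one was called. Tlr2 encodes the receptor for bacterial lipopeptides and measured 27.6, 29.1 and 25.9 FPKM in TPPU and 24.4, 27.1 and 30.4 FPKM in control libraries. The groups overlapped throughout, with a log2 difference of 0.01 (SE 0.11, 95% interval -0.23 to 0.26, limma adjusted p = 0.973). Its partners were lower in level: Tlr1, which pairs with Tlr2 for triacylated lipopeptides, averaged 11.5 ± 2.41 FPKM in TPPU and 9.02 ± 2.38 in control libraries (SD, n = 3 each). Tlr6, which pairs with Tlr2 for diacylated ones, averaged 3.06 ± 0.53 FPKM in TPPU and 2.69 ± 0.76 in control libraries. Both had their lowest value in control replicate 3, at 6.27 and 1.81 FPKM. The log2 change of Tlr1 was 0.33, and 0.12 without that library, while that of Tlr6 was 0.15, and -0.03 without it.

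The stretch upstream of Tlr2 (chr3:83841768-83841858, minus strand) is shown because Tlr2 is the most abundant receptor here and carries a match to the NF-κB consensus, in capitals. Promoter windows are the 250 bases upstream of each start in RefSeq (GRCm38.p6), of which the part outside annotated exons of the gene is printed.
Tlr2: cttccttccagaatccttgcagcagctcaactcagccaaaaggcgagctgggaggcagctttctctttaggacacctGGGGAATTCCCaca

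Tlr4, which encodes the LPS receptor itself, was measured at about 1 FPKM or less in nearly every library and was below the filter for testing. It measured 0.978, 1.22 and 0.992 FPKM in TPPU libraries and 0.977, 0.64 and 0.613 FPKM in control libraries. These values correspond to an estimated 99, 156 and 117 fragments in TPPU and 97, 80 and 65 in control libraries. All TPPU values lay above all control values, but TPPU replicate 1 and control replicate 1 were almost equal, and the two-sided exact permutation test gave p = 0.1, the smallest that 3 against 3 allows.

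The endosomal receptors were all measured at low levels, and their chaperone at a high one. Unc93b1, which carries the nucleic acid receptors from the endoplasmic reticulum to endosomes, measured 215, 201 and 203 FPKM in TPPU libraries and 185, 175 and 197 FPKM in control libraries. The groups did not overlap, although TPPU replicate 2 and control replicate 3 were close, and the log2 change of 0.15 (SE 0.08, 95% interval -0.03 to 0.34) did not pass (limma adjusted p = 0.66). The gene lies on chromosome 19 (3935186 to 3949340, mm10, plus strand).

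Tlr7, a receptor for single-stranded RNA, averaged 3.05 ± 0.47 FPKM in TPPU and 3.3 ± 0.71 in control libraries. Tlr9, which detects unmethylated CpG DNA, averaged 2.23 ± 0.45 FPKM in TPPU and 2.86 ± 1.08 in control libraries, with its highest value of 3.96 in control replicate 3. Its log2 change was -0.23, and -0.03 without that library. Tlr13, a mouse receptor for bacterial ribosomal RNA, measured 1.29, 1.28 and 2.83 FPKM in TPPU and 1.21, 1.86 and 1.11 in control libraries, so 1 TPPU library stood above the others. Tlr3, which detects double-stranded RNA and signals through TRIF, measured 0.348, 0.421 and 0.38 FPKM in TPPU and 0.521, 0.239 and 0.281 in control libraries (two-sided exact permutation p = 0.8). Tlr8 was listed at 0 in 4 libraries and reached an estimated 3 fragments in TPPU replicate 3 and 6 in control replicate 2.

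Among the co-receptors, Ly86 had the largest difference of any member. It encodes MD-1, the secreted partner of CD180, and measured 45.4, 41.8 and 44 FPKM in TPPU libraries, against 31.9, 33 and 24.3 FPKM in control libraries. All TPPU values lay well above all control values, and control replicate 3 was the lowest of the 6. The log2 change was 0.55 (SE 0.13, 95% interval 0.26 to 0.84), or 0.42 without control replicate 3 and 0.54 with the trend on GC content removed. It did not pass over all genes (limma adjusted p = 0.397, unadjusted p = 0.0021). Cd180, which encodes the TLR4-like receptor RP105 that MD-1 binds, had overlapping groups. It measured 11.3, 14.4 and 13.8 FPKM in TPPU and 12.8, 17 and 12.7 in control libraries, which is -0.09 on the log2 scale (SE 0.14, limma adjusted p = 0.876).

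Ly86 lies on chromosome 13 (37345208 to 37419036, mm10, plus strand). The bases before its annotated start (chr13:37345095-37345207, plus strand) are shown because this member differed most. The 250-base window held none of the motifs searched.
Ly86: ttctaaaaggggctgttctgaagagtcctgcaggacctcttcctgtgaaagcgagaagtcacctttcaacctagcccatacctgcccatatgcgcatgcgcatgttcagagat

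Cd14, which hands LPS to the TLR4 complex, was the most abundant member. It measured 430, 381 and 427 FPKM in TPPU libraries and 371, 394 and 567 FPKM in control libraries. Control replicate 3 stood above the 5 other libraries, which overlapped. The log2 change of -0.08 (SE 0.15, 95% interval -0.43 to 0.27, limma adjusted p = 0.894) was 0.11 without that library. Ly96 encodes MD-2, the TLR4 partner that binds the lipid of LPS, and measured 1.45, 1.93 and 1.01 FPKM in TPPU libraries and 0.332, 2.65 and 0.974 FPKM in control libraries. Its 6 values rested on an estimated 27, 45 and 22 fragments in TPPU and 6, 61 and 19 in control libraries. The control values enclosed all TPPU values, and the log2 change of 0.2 had an interval of -0.58 to 0.97 (SE 0.34, limma adjusted p = 0.883).

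No adaptor was called, and in 4 of the 5 the groups overlapped. Myd88, the adaptor shared by nearly all TLRs, measured 23.5, 21.2 and 18.4 FPKM in TPPU and 20, 17.2 and 24.9 in control libraries, with a log2 difference of 0.03 (SE 0.15, limma adjusted p = 0.962). Tirap, which brings MyD88 to TLR2 and TLR4 at the membrane, measured 8.98, 11.4 and 10.2 FPKM in TPPU and 11.8, 10.4 and 10.7 in control libraries, which is -0.1 on the log2 scale (SE 0.12, limma adjusted p = 0.828). In both genes the groups overlapped. Pik3ap1, whose product BCAP links TLRs to PI3-kinase, was the adaptor with the highest level, at 58.6 ± 2.71 FPKM in TPPU and 62.6 ± 9.85 in control libraries.

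The window upstream of Myd88 (chr9:119340042-119340268, minus strand) is shown because Myd88 is the common adaptor and 1 of 2 members with a match to the interferon-stimulated response element, in capitals. It precedes the RefSeq start but lies within an intron of the GENCODE gene, which spans 119335934 to 119341411 through a first exon further upstream.
Myd88: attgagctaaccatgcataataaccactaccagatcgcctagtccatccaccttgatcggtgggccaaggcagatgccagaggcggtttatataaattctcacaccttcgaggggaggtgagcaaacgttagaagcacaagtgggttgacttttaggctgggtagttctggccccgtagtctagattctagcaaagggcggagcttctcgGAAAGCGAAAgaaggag

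Neither adaptor of the TRIF side passed the test. Ticam2, which encodes TRAM, the bridge between TLR4 and TRIF, measured 3.97, 3.64 and 4.36 FPKM in TPPU libraries and 3.04, 3.14 and 2.81 FPKM in control libraries. All TPPU values were above all control values, with a log2 difference of 0.32 (SE 0.12, 95% interval 0.05 to 0.59, limma adjusted p = 0.564, unadjusted p = 0.024). In the annotation, the longest overlap of Ticam2 exons with those of Tmed7 on the same strand is 838 bases. Fragments there could be assigned to either gene. Tmed7 averaged 22.8 ± 1.48 FPKM in TPPU and 23.4 ± 1.67 in control libraries. Ticam1, which encodes TRIF, measured 26.5, 21 and 22.9 FPKM in TPPU and 25.6, 25.9 and 35.6 in control libraries. Its groups overlapped through TPPU replicate 1, and its log2 change of -0.28 (SE 0.15, 95% interval -0.62 to 0.06, limma adjusted p = 0.651) was -0.13 without control replicate 3. With the GC trend removed, all TPPU values of Ticam1 were below all control values. No share over all tested genes was computed in that setting. It had 730 genes higher and 513 lower at an unadjusted limma p under 0.05, against 408 and 360 in the main fit.

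Among the kinases, kinase subunits and ubiquitin enzymes, 8 of 14 had a negative and 6 a positive change, with a median of -0.03, or -0.12 without control replicate 3. None was called. Map3k8 encodes TPL2, the kinase that links TLR signalling to ERK. It measured 6.91, 5.69 and 5.58 FPKM in TPPU libraries, against 8.13, 8.84 and 7.56 FPKM in control libraries. All TPPU values were below all control values, with a log2 difference of -0.38 (SE 0.12, 95% interval -0.65 to -0.11, limma adjusted p = 0.53, unadjusted p = 0.012). It was -0.43 without control replicate 3 and -0.43 with the GC trend removed. Map3k8 lies on chromosome 18 (4331327 to 4353015, mm10, minus strand).

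Peli1, which encodes an E3 ubiquitin ligase of the IRAK complex, measured 13.1, 12.8 and 12.8 FPKM in TPPU libraries and 16.9, 18.4 and 13.1 FPKM in control libraries. The TPPU values lay within a narrow band, and control replicate 3 sat at its upper edge while the other controls were well above. The log2 change of -0.29 (SE 0.13, 95% interval -0.59 to 0.01, limma adjusted p = 0.627) was -0.42 without control replicate 3. With median-of-ratios scaling or with the length trend removed, its groups overlapped.

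Of the IRAK kinases, Irak2 was measured at the highest level and Irak4 at the lowest. Irak4, the kinase that MyD88 recruits first, measured 3.46, 3.71 and 3.76 FPKM in TPPU and 3.11, 2.76 and 4 in control libraries, which is 0.12 on the log2 scale (SE 0.14, limma adjusted p = 0.821). Irak1, which IRAK4 phosphorylates, measured 16.4, 16.5 and 14.1 FPKM in TPPU and 14.4, 12.7 and 14.1 in control libraries. Its groups overlapped through TPPU replicate 3, with a log2 difference of 0.18 (SE 0.11, limma adjusted p = 0.694). With the GC trend removed, all TPPU values of Irak1 were above all control values, but no share over all tested genes was computed there. Irak2, which sustains the response at later times, measured 51.3, 51.4 and 49.1 FPKM in TPPU and 53.9, 56.6 and 65.6 in control libraries. All TPPU values were below all control values, and the log2 change was -0.21 (SE 0.1, 95% interval -0.43 to 0.02, limma adjusted p = 0.63), or -0.12 without control replicate 3.

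The stretches upstream of Irak2 (chr6:113638217-113638466, plus strand) and Peli1 (chr11:21091074-21091290, plus strand) are shown as examples of members whose TPPU values were all below control. Neither window held a match to the NF-κB, AP-1, ISRE, CRE or PU.1 motifs.
Irak2: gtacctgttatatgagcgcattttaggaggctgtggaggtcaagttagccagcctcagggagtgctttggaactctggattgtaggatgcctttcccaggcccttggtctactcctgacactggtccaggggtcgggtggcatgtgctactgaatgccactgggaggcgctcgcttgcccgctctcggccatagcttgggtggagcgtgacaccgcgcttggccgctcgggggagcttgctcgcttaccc
Peli1: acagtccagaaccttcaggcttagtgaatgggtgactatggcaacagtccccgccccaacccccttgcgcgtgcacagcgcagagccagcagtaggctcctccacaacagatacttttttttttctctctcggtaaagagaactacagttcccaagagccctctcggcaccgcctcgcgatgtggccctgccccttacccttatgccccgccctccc

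Tbk1, the kinase that phosphorylates IRF3 on the TRIF route, measured 31.3, 30.5 and 28.9 FPKM in TPPU libraries and 34.3, 33.1 and 32.3 FPKM in control libraries. The groups did not overlap, but the log2 change was small, at -0.13 (SE 0.09, 95% interval -0.33 to 0.06, limma adjusted p = 0.711). With the GC trend removed the groups overlapped. Map3k7 encodes TAK1, where the route divides towards IKK and MAP kinases, and measured 16, 16.1 and 16.9 FPKM in TPPU and 17.7, 15.7 and 15.5 in control libraries. Its log2 change was 0.01, with a 95% interval of -0.21 to 0.23 (SE 0.1, limma adjusted p = 0.982).

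The partners of TAK1 differed in level. Tab2 averaged 29 ± 0.9 FPKM in TPPU and 29.6 ± 1.92 in control libraries, and Tab1 6.61 ± 1.52 FPKM in TPPU and 7.03 ± 1.3 in control libraries. Tab3, whose product binds ubiquitin chains as TAB2 does, measured 1.57, 2.27 and 2.34 FPKM in TPPU and 2.39, 2.17 and 0.481 in control libraries. Control replicate 3 alone was low, and the log2 change of 0.27 was -0.11 without it. The IKK complex is made of 2 kinases and a scaffold. Ikbkb, the kinase of the canonical NF-κB route, averaged 4.55 ± 0.39 FPKM in TPPU and 5.37 ± 0.62 in control libraries (log2 change -0.2, SE 0.12, limma adjusted p = 0.702). Chuk, which encodes IKKα, measured 11.8, 13.8 and 15 FPKM in TPPU and 17.7, 16.2 and 9.2 in control libraries, so its log2 change of -0.04 was -0.31 without control replicate 3. Ikbkg, the scaffold NEMO, averaged 6.11 ± 1.41 FPKM in TPPU and 5.97 ± 0.8 in control libraries. The longest overlap of Ikbkg exons with those of G6pdx on the other strand is 418 bases. That of Myd88 with Acaa1a is 223 bases, and that of Tirap with Gm39318 is 443. Whether the authors counted by strand is not stated. Ube2n, the ubiquitin-conjugating enzyme that works with TRAF6, averaged 16.2 ± 4.04 FPKM in TPPU and 15.4 ± 4.75 in control libraries.

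Both brakes had a negative change and neither was called. Tollip, whose product binds IRAK1 and dampens the signal, measured 30.7, 31.6 and 31.7 FPKM in TPPU libraries and 32.3, 37.7 and 36.8 FPKM in control libraries. The groups did not overlap, with control replicate 1 close to the TPPU values, and the log2 change was -0.18 (SE 0.09, 95% interval -0.39 to 0.04, limma adjusted p = 0.66). Irak3 encodes IRAK-M, the family member known as a brake in macrophages, and measured 14.5, 13.3 and 14.2 FPKM in TPPU and 14.9, 15 and 13.8 in control libraries. Its groups overlapped, with a log2 difference of -0.05 and a 95% interval of -0.27 to 0.16 (SE 0.09, limma adjusted p = 0.884).

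**Figure D2:**
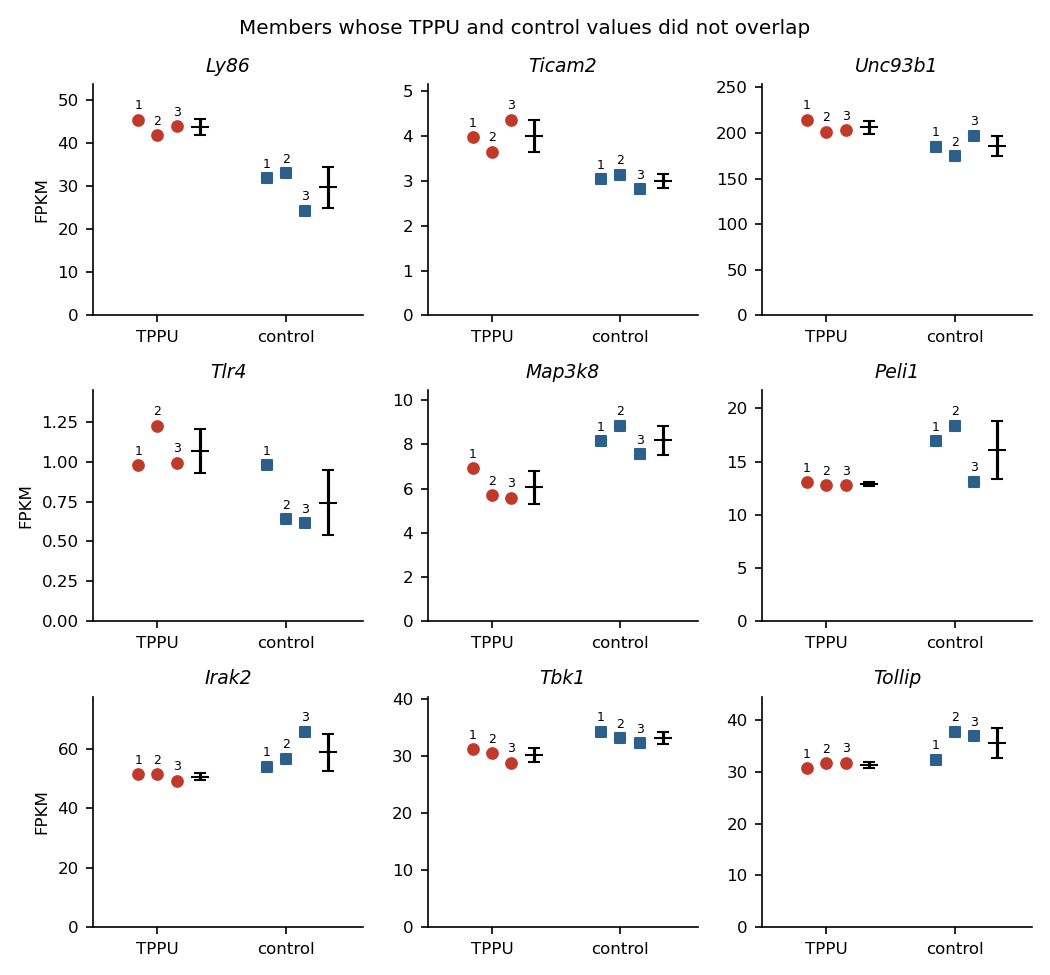
FPKM (vertical axes, from 0) of the 9 members whose TPPU and control values did not overlap, 1 point per library with its replicate number, and the mean with SD (n = 3) beside them. Ly86, Ticam2, Unc93b1 and Tlr4 are higher in TPPU libraries, and Map3k8, Peli1, Irak2, Tbk1 and Tollip lower; in Peli1 and Tlr4 the nearest values of the groups almost touch.

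**Figure D3:**
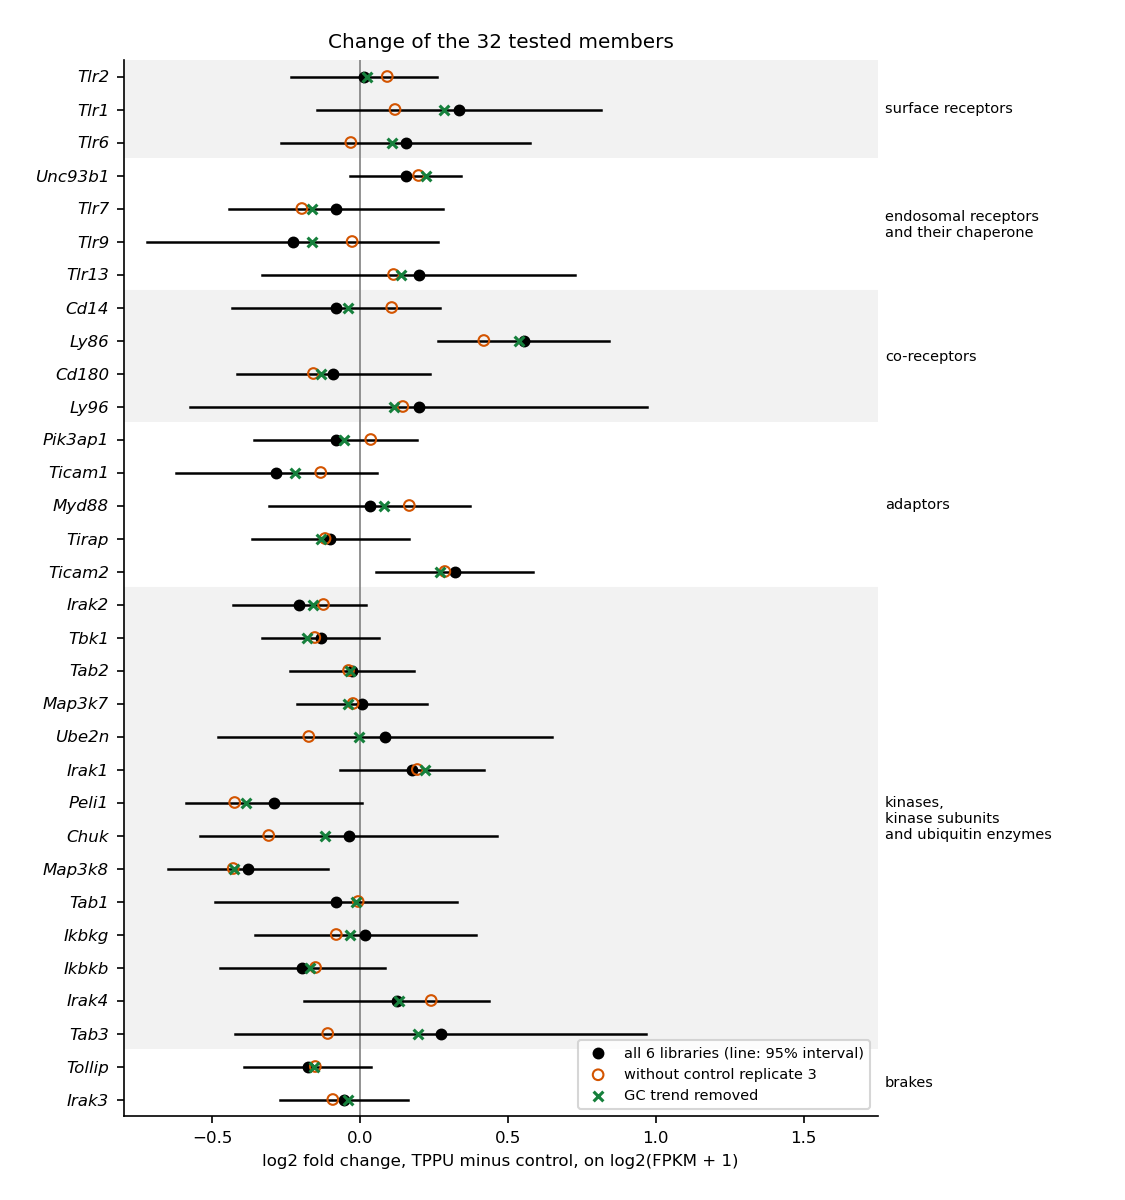
Log2 fold change of TPPU minus control (horizontal axis) for the 32 tested members with the 95% interval of the limma fit (black), the value without control replicate 3 (open circles) and the value with the GC trend removed (crosses). Of all members, the interval lies above 0 for Ly86 and Ticam2 and below 0 for Map3k8, before adjustment over all genes.

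The libraries leaned to different sides along the GC content of the members' transcripts, control replicate 3 the most. Of the 16 tested members with a GC content below their median of 47.4%, 16 were lower in control replicate 3 than the mean of control replicates 1 and 2, with a median log2 difference of -0.27. Of the 16 at or above it, 13 were higher, with a median of 0.23. Across the 32 members, the deviation of this library from the mean of the 6 had a Spearman's rho of 0.79 with GC content, and across all tested genes 0.61. In control replicate 2, which is part of the mean above, the values were -0.67 over members and -0.45 over all tested genes, and in control replicate 1 they were -0.29 and -0.19. In TPPU replicates 1, 2 and 3 they were 0.52, -0.16 and -0.48 over members and 0.24, -0.29 and -0.42 over all tested genes. Against control replicate 1 alone, 15 of the 16 members below the median GC content were lower in control replicate 3 (median -0.2), and 13 of the 16 others were higher (median 0.23). The points share 1 library each and are not independent replicates. The largest such differences between controls were those of Tab3 (-1.15), Chuk (-0.81), Ube2n (-0.77) and Tlr1 (-0.65), all at a GC content of 40.7% to 45.1%. With a trend on GC content removed from each library, the log2 changes of the 3 members with an unadjusted p under 0.05 were 0.54 for Ly86, 0.27 for Ticam2 and -0.43 for Map3k8.

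**Figure D4:**
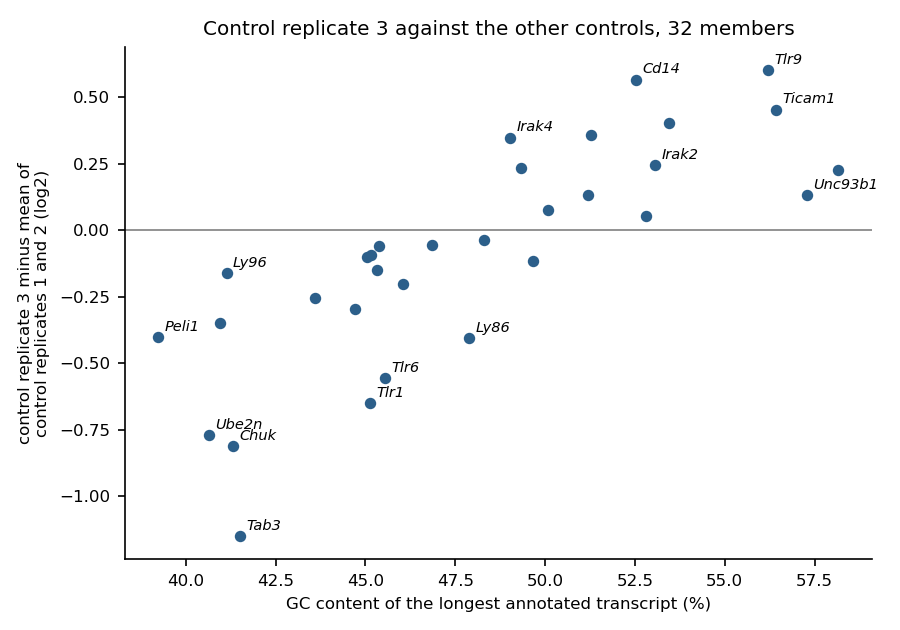
Control replicate 3 minus the mean of control replicates 1 and 2 (vertical axis, log2 scale) against the GC content of the longest annotated transcript (horizontal axis) for the 32 tested members, 1 point per gene. The 16 members below a GC content of 47.4% are all below 0, and 13 of the 16 others are above 0.

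Ratios within a library do not depend on how libraries were scaled, and 8 pairs of members were compared in this way. They can still carry a library's lean along GC content, which was 56.4% for Ticam1 and 45.05% for Ticam2. Against the mean of the other controls, control replicate 3 was at 0.45 for Ticam1 and -0.1 for Ticam2 (log2). The part of GC content in the ratios was not tested. The 3 described here were chosen after their values were seen, so the ratios are a description and were not tested. The ratio of Ly86 to its receptor gene Cd180 was 4, 2.89 and 3.19 in TPPU libraries and 2.49, 1.94 and 1.91 in control libraries. The ratio of Irak2 to Irak1 was 3.13, 3.11 and 3.5 in TPPU and 3.75, 4.46 and 4.67 in control libraries. The ratio of Ticam1 to Ticam2 was 6.67, 5.77 and 5.27 in TPPU and 8.42, 8.26 and 12.7 in control libraries. In each of the 3 pairs the groups did not overlap, with the first ratio higher and the others lower in TPPU libraries. Each pair holds a member whose own groups did not overlap (Ly86, Irak2 or Ticam2), so its ratio in part restates that difference. No share over pairs of other genes was computed. Of the 5 other pairs, the groups did not overlap for Ticam1 to Myd88 (1.12 ± 0.13 in TPPU and 1.4 ± 0.12 in control libraries), and they overlapped for Irak3 to Irak4, Tbk1 to Ikbkb, Tlr2 to Tlr4 and Cd14 to Ly96.

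**Figure D5:**
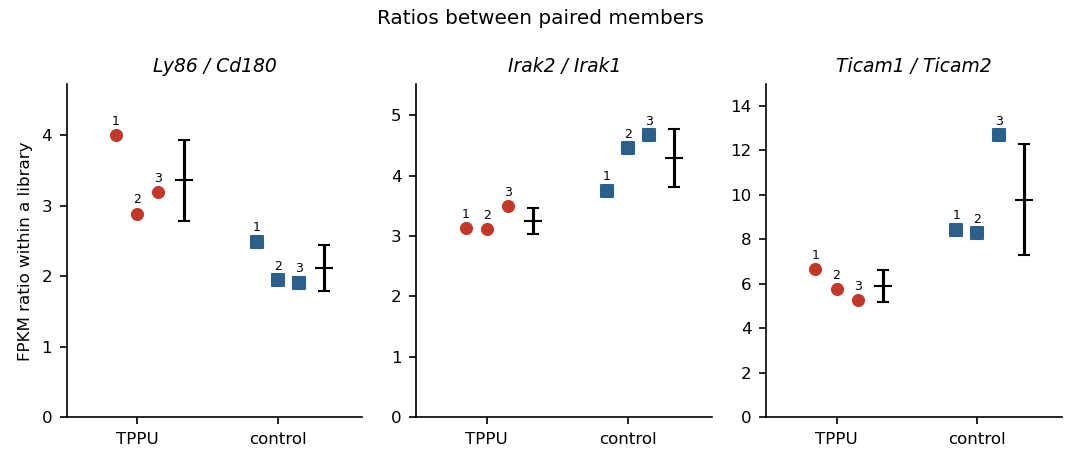
Ratio of FPKM values within each library (vertical axes, from 0) for Ly86 to Cd180, Irak2 to Irak1 and Ticam1 to Ticam2, 1 point per library with its replicate number, and the mean with SD (n = 3) beside them. The first ratio averages 3.36 in TPPU and 2.11 in control libraries, the second 3.25 in TPPU and 4.29 in control libraries, and the third 5.9 in TPPU and 9.78 in control libraries.

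Promoter windows were found for 26 of the 35 members, 36 windows in all, since some genes have several starts. Searched on both strands, the NF-κB consensus matched in 3 of the 26 (Tlr2, Tlr3 and Map3k7), where 4.46% of all 27025 genes with windows held it in at least 1. The AP-1 motif TGANTCA matched in 2 (Tlr9 and Ikbkg, against 7.82% of genes), and the interferon-stimulated response element in 2 (Myd88 and Tlr6, against 3.46%). The windows with the Tlr3 match to NF-κB and the Tlr6 match to the interferon element lay within the annotated gene, as did that of Myd88. So did some of the Ikbkg windows with an AP-1 match. The PU.1 motif GAGGAAGT matched in 1 (Tlr1, against 2.79%), and the CRE motif TGACGTCA in 0 (against 1.77%). The GC box GGGCGG matched in 16 (against 35.4%) and the TATA box TATAAA in 3 (against 14.3%). By window, 3.92% of 32536 distinct windows held the NF-κB consensus. No spelled-out motif contains another. No window was found for Tlr4, Tlr7, Unc93b1, Cd14, Ly96, Ticam2, Tab1, Map3k8 and Ikbkb, so these were not searched. Among them, Tlr4, Unc93b1, Ticam2 and Map3k8 had groups that did not overlap. Of the members searched, all but Ly86, Peli1, Irak2, Tbk1 and Tollip had overlapping groups. Those with NF-κB, AP-1, interferon element or PU.1 matches were thus among the many that overlapped. A link between matches and group differences was not tested, and a match describes letters, not a binding site.

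Other genes of the pathway were taken from a list of 68 genes, of which 67 were in the table and 56 were tested. None was called (limma, adjusted p under 0.05). By unadjusted p under 0.05, 0 were higher and 8 lower, against 4.19% and 3.7% of all tested genes. The groups did not overlap in 11: TPPU was higher in 1, which is 1.79% of the 56, against 7.48% of all tested genes, and lower in 10, which is 17.9%, against 7.88%. Of 23 tested signalling components 11 had a positive and 12 a negative change, with a median of -0.0034. Of 12 tested brakes 4 had a positive and 8 a negative change, with a median of -0.03. Of 8 tested targets of the NF-κB side, 6 had a negative change (median -0.11) and 3 an unadjusted p under 0.05. Of 8 tested targets of the TRIF and interferon side, 5 had a negative change (median -0.37) and 4 an unadjusted p under 0.05. Of all 9728 tested genes, 4437 had a negative change, and the lists were not tested against them. The lists were chosen with earlier results of these data known, so their shares are a description only.

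The 6 of these genes with the smallest p were 5 listed as targets and 1 as a brake. Cmpk2, an interferon-induced nucleotide kinase, measured 5.39, 6.38 and 5.7 FPKM in TPPU and 10.8, 11.4 and 12.9 in control libraries (log2 change -0.9, SE 0.11, limma adjusted p = 0.116). Tnfaip3, which encodes the ubiquitin-editing brake A20, measured 8.78, 9.24 and 9.63 FPKM in TPPU and 13.8, 13.6 and 13.8 in control libraries (log2 change -0.53, SE 0.09, limma adjusted p = 0.263). Rsad2, which encodes viperin, measured 62.4, 75.7 and 70.4 FPKM in TPPU and 99.2, 124 and 90.6 in control libraries. In these genes the groups were clearly apart. Nfkbiz, a nuclear IκB protein that helps induce late NF-κB targets, averaged 79.7 ± 4.65 FPKM in TPPU and 103 ± 10.2 in control libraries. Cxcl10, an interferon-induced chemokine, averaged 7.7 ± 1.03 FPKM in TPPU and 10.5 ± 0.58 in control libraries. Nfkbia, which encodes the NF-κB inhibitor IκBα, averaged 218 ± 12.2 FPKM in TPPU and 284 ± 44 in control libraries. Limma gave Rsad2, Nfkbiz, Cxcl10 and Nfkbia adjusted p of 0.397, 0.466, 0.492 and 0.554.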

How the data were processed

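Polyadenylated RNA of 6 RAW264.7 libraries was sequenced from strand-marked cDNA, per the labels' protocols. The authors deposited FPKM values for 18019 gene symbols, and the submitters' processing notes name mm10; no aligner, counter, annotation or filter is given in the sources used here. Each column carries a library name that 1 sample's description also holds, and the titles gave the groups. The labels give all libraries 1 batch and do not name separate cultures, so p-values measure the spread between these libraries, which may be technical.

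The test took genes reaching 1 FPKM in 3 or more libraries (9728 of 18019) on log2(FPKM + 1), a scale that understates changes of low genes. The 2 groups were fitted in limma 3.58.1 under R 4.3.3, with its trend of variance on level, two-sided, with Benjamini-Hochberg adjustment over all tested genes at 0.05. Untested members were compared by two-sided exact permutation. Intervals are 95% intervals of the limma fit.

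FPKM keeps no totals, so depth was estimated from the step of low values in genes with 1 annotated transcript and their exon length in GENCODE M21; 92.8% to 94.1% of those values came out whole within 0.1 of a fragment, where chance gives 20%. At that depth 1 fragment in 1 kb is worth 0.0436 to 0.0562 FPKM. Fragment numbers of members are these estimates; they cover counting error only, and no count model was used. Positions are from GENCODE M21 (mm10), 1-based, and promoters from RefSeq.

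The members and gene lists were chosen with earlier results of these data known. Per-library values are given for members whose groups did not overlap, the 6 members with the smallest p, and 16 named components of the pathway; of the other pathway genes, the 6 with the smallest p are named. Alternatives were other pseudocounts, filters, scalings, variance models, sample weights, a replicate block, GC and length trends removed by loess (span 0.3), and each library left out. Libraries were not treated as paired by replicate number, except in the replicate block. Other software was matplotlib 3.10.9, scipy 1.17.1, pandas 2.3.3, numpy 2.4.6 and Python 3.11.15.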

Additional observations from a re-analysis of the deposited data

How the results depend on the processing

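Across up to 18 alternatives per gene, 15 of the 32 tested members kept the sign of their change, among them Ly86 (0.42 to 0.63), Ticam2 (0.27 to 0.4), Map3k8 (-0.47 to -0.33), Peli1 (-0.42 to -0.2), Irak2 (-0.26 to -0.11), Tbk1 (-0.18 to -0.1), Tollip (-0.24 to -0.08) and Unc93b1 (0.11 to 0.22). The calls moved with sample quality weights, where control replicate 3 was weighted at 0.19 and control replicate 1 at 3.84: 89 genes were higher and 80 lower, with 1 member higher (Ly86, adjusted p = 0.029) and 2 lower (Map3k8, 0.047, and Peli1, 0.045), and 3 other pathway genes lower (Tnfaip3, Cmpk2 and Rsad2). In the other alternatives none of these 3 members was called, with adjusted p up to 0.936 for Ly86 and 0.989 for Map3k8 and Peli1. With the GC trend removed 1 gene was lower (Il1rn), not a member. Without TPPU replicate 1, 5 were higher (Apoh, Rps27a, Ahsg, Fabp1 and Serpina1b) and 1 lower (Cfd), none a member. Whether these 5 go with the hepatocyte markers, which were higher on average in TPPU libraries, was not tested. The other left-out libraries gave 0. With a library left out, members with all TPPU values above control numbered 3 to 5, against 11% to 17% of all tested genes, and those with all TPPU values below control 5 to 7, against 10.3% to 14.4%. The cause of these differences was not tested.

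The median change of the co-receptors, 0.06 over 4 genes, was 0.202 with a pseudocount of 0.1, -0.0821 at a mean of at least 5 FPKM and 0.254 with weights, and that of the adaptors was 0.0513 with weights. With a library left out, the medians ranged from -0.15 to 0.31 for co-receptors, -0.0644 to 0.0163 for all members, -0.11 to 0.0751 for endosomal receptors with their chaperone, and -0.12 to 0.0233 for kinases, subunits and ubiquitin enzymes.

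The other 17 tested members changed sign in at least 1 alternative. With quantile normalization the changes that turned were those of Tlr2 (-0.0032), Map3k7 (-0.0088) and Ikbkg (-0.0105). With weights the changes that turned were those of Tlr9 (0.0197), Cd14 (0.0794), Cd180 (0.0183), Pik3ap1 (0.0513), Map3k7 (-0.072), Tab2 (0.0241), Tab3 (-0.0439), Ikbkg (-0.0635) and Ube2n (-0.0239). With the GC trend removed the changes that turned were those of Map3k7 (-0.0422), Ikbkg (-0.0357) and Ube2n (-0.0033). With a library left out, the log2 change ranged from -0.198 to 0.107 for Cd14, -0.158 to 0.0377 for Cd180, -0.31 to 0.13 for Chuk, -0.13 to 0.14 for Ikbkg, -0.14 to 0.59 for Ly96, -0.0243 to 0.063 for Map3k7, -0.0863 to 0.166 for Myd88, -0.18 to 0.0357 for Pik3ap1, -0.232 to 0.0533 for Tab1, -0.0659 to 0.0214 for Tab2, -0.11 to 0.49 for Tab3, -0.0513 to 0.333 for Tlr13, -0.0632 to 0.0915 for Tlr2, -0.0318 to 0.258 for Tlr6, -0.197 to 0.039 for Tlr7 and -0.17 to 0.27 for Ube2n.

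Deviations of same-numbered libraries correlated at -0.3, 0.15 and -0.4 for replicates 1, 2 and 3. These values can carry each library's lean along GC content, and none for differently numbered libraries were set beside them. They therefore cannot decide whether the replicate numbers pair the libraries. With the replicate block 0 genes and 0 members were called, and the smallest adjusted p of any gene was 0.307. Depth limits Tlr8, Tlr3 and Ly96, the last with as few as 6 fragments in 1 library.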
